A study of Homo sapiens with 4 samples.

Results

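The let-7 miRNA family was examined in small RNA libraries of HCT116 Drosha k.o. cells. The members were the 10 rows of the deposited table named MIRLET7A1, MIRLET7A2, MIRLET7A3, MIRLET7B, MIRLET7C, MIRLET7D, MIRLET7E, MIRLET7F2, MIRLET7G and MIRLET7I, of 26485 gene symbols in all and of 1879 miRNA symbols. They were chosen by name, with earlier results of these data known. Of the 10, 7 had reads in at least 1 library, and 3 had none. HCT116 is a human colon carcinoma line, and in all 4 libraries the gene for Drosha had been inactivated, so the control cells carried the knockout too. Cells of both vector libraries (n = 2) received the lentiviral plasmid pLenti-GIII-CMV-RFP-2A-Puro with no insert, which carries a red fluorescent protein and puromycin resistance. Cells of both CD95L libraries (n = 2) received that plasmid with CD95L, where the name of the plasmid gives a CMV promoter. Per the study's methods the insert in HCT116 lines was CD95L MUT NP, a CD95L sequence altered so that its protein cannot bind CD95 and with a stop codon placed right behind the start codon. Infected cells were pooled, selected with 3 µg/mL puromycin for 2 days and harvested at 50 h. The labels count this time once from plating and once from selection. For the pellets of its Ago pull-down, the study's methods count it from plating. The libraries were made in duplicate, and at which step the duplicates parted is not given, so the p-values measure only the spread between these libraries, which may be technical. Both vector libraries also carry the mark "# 2" in their labels, whose meaning is not given, and whatever it marks cannot be told apart from the group.

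let-7 miRNAs are among the most conserved miRNAs of animals and hold down growth-promoting mRNAs such as those of RAS, HMGA2, MYC and LIN28B. In the canonical route Drosha, with DGCR8, cuts the hairpin from the primary transcript, Dicer removes the loop, and the mature strand is loaded into an Argonaute protein, where the seed, bases 2 to 8 from the 5′ end, pairs with target mRNAs. LIN28 proteins bind let-7 precursors and block their maturation. The question the comparison addresses is what small RNAs were present, in cells short of Drosha products, with and without CD95L mRNA.

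The mature 5p strands of the family are shown first because they bear on which rows can collect reads. All 10 members matched RefSeq (GRCh38.p14), which gave 8 distinct mature sequences of 22 bases, each with the seed GAGGUAG, shown in capitals.
let-7a-5p: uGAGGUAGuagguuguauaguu
let-7b-5p: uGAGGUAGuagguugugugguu
let-7c-5p: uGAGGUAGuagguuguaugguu
let-7d-5p: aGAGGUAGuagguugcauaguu
let-7e-5p: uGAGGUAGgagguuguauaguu
let-7f-5p: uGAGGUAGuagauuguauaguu
let-7g-5p: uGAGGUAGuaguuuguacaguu
let-7i-5p: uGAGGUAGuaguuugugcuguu
miR-98-5p: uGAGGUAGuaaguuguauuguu
The last, miR-98, is no member of the 10 but has the same seed. Counting positions from 1 at the 5′ end and giving the let-7a base first, let-7c differed from let-7a by A19G alone, let-7e by U9G alone and let-7f by G12A alone. let-7b differed by A17G and A19G, let-7d by U1A and U16C, let-7g by G12U and U18C, and let-7i by the 4 changes G12U, A17G, U18C and A19U. miR-98 differed by G11A and A19U. The mature let-7a sequence is encoded by 3 genes, MIRLET7A1, MIRLET7A2 and MIRLET7A3, and had 3 exact copies in hg38, and let-7f, encoded by MIRLET7F1 and MIRLET7F2, had 2. Each of the other 7 sequences had 1 exact copy. The seed was carried by 14 miRNA symbols in all, the 10 members, MIR98, MIRLET7F1, MIR4458 and MIR4500, and MIR4458 and MIR4500 had no read in any library.

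The 10 genes lie at 8 places in the genome (coordinates of the hairpins in GRCh38.p14, overlaps from GENCODE, which is not stated to be the annotation used by the authors). MIRLET7A1 (chr9:94175957-94176036, plus strand) and MIRLET7D (chr9:94178834-94178920, plus strand) are 2797 bases apart and both lie in an exon of MIRLET7A1HG. MIRLET7A3 (chr22:46112749-46112822, plus strand) and MIRLET7B (chr22:46113686-46113768, plus strand) are 863 bases apart and both lie in an exon of MIRLET7BHG. MIRLET7A2 (chr11:122146522-122146593, minus strand) is in an intron of MIR100HG, MIRLET7F2 (chrX:53557192-53557274, minus strand) in an intron of HUWE1, and MIRLET7G (chr3:52268278-52268361, minus strand) in an intron of WDR82. MIRLET7C (chr21:16539828-16539911, plus strand) overlaps an exon of MIR99AHG. MIRLET7E (chr19:51692786-51692864, plus strand) is in an intron of SPACA6 and faces an exon of the antisense gene SPACA6-AS1. MIRLET7I (chr12:62603686-62603769, plus strand) lies within MIRLET7IHG. The hairpins of the 3 members with the most reads are printed with their 5p strand in capitals, since a row of the table is a gene and does not separate the arms of its hairpin.
MIRLET7G: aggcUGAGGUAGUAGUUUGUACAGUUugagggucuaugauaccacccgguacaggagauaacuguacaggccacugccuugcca
MIRLET7C: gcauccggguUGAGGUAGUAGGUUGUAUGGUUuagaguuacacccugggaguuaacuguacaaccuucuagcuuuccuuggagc
MIRLET7I: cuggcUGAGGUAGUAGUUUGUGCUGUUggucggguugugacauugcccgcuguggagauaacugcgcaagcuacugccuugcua
Each of these 3 hairpins is 84 bases long, so the length of the gene does not differ among their rows. Whether reads of different miRNAs were captured and counted alike was not tested.

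Reads assigned to genes numbered 24915394 and 25163566 in the vector libraries and 22897068 and 22488145 in the CD95L libraries, and levels are given in CPM, the reads of a gene scaled to a library total of 1000000. A count of 0 allows a level of up to 3 reads, which is 0.119 to 0.133 CPM, and this limit and all intervals on reads cover counting error only. All miRNA symbols together made up 35110 and 30312 CPM with vector, and 29355 and 30227 CPM with CD95L. FASLG, the gene of CD95L, had mean levels of 2.05 CPM with vector and 92.7 CPM with CD95L. Its difference of 5.00 on the log2(CPM + 1) scale had an adjusted p of 3.55e-05 by limma, in keeping with the labels of all groups. The 10 colon epithelial markers listed all had reads. Of these, 8 were tested and 0 were called by limma or edgeR, and the most abundant were KRT18, KRT8 and LGALS4, with vector means of 58.9, 56.6 and 6.19 CPM. DROSHA mRNA fragments stood at 13.6, 10.4, 10.1 and 13.6 CPM, which does not test the knockout.

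The let-7 family was a minor part of the miRNA reads in every library, and it was far more abundant in 1 vector library than in any other. The summed level of the 10 rows was 123 CPM in vector replicate 1, 20.9 CPM in vector replicate 2, 4.41 CPM in CD95L replicate 1 and 4.18 CPM in CD95L replicate 2. Behind these sums stood 3071, 525, 101 and 94 reads. Both vector libraries were above both CD95L libraries, and vector replicate 1 stood apart from its own replicate. The family made up 0.351% of miRNA reads in vector replicate 1 (exact 95% interval 0.339 to 0.364%) and 0.0688% in vector replicate 2 (0.0631 to 0.0750%). In the CD95L libraries it made up 0.0150% (0.0122 to 0.0183%) and 0.0138% (0.0112 to 0.0169%). The intervals of the 2 CD95L libraries overlapped, and those of the 2 vector libraries did not. The mean sum in the vector group was 16.8 times that in the CD95L group, but this ratio came to 4.86 when vector replicate 1 was left out and to 28.7 when vector replicate 2 was. In bulk RNA, fewer cells that hold a miRNA and less of it per cell cannot be told apart.

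**Figure D1:**
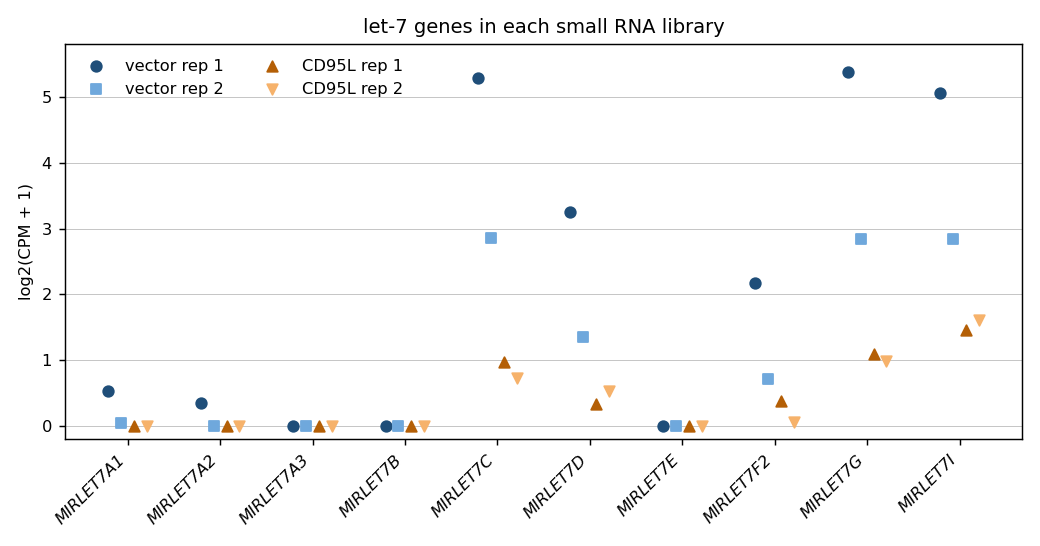
Level of each of the 10 let-7 genes, as log2(CPM + 1) on the vertical axis, with 1 point per library for 2 vector and 2 CD95L libraries. For MIRLET7C, MIRLET7D, MIRLET7F2, MIRLET7G and MIRLET7I vector replicate 1 is highest, vector replicate 2 next and both CD95L libraries lowest, while MIRLET7A3, MIRLET7B and MIRLET7E are at 0 throughout.

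The rows with the most reads were MIRLET7G, MIRLET7C and MIRLET7I. MIRLET7G reached 40.6 and 6.2 CPM with vector, against 1.14 and 0.978 CPM with CD95L. MIRLET7C was at 37.8 and 6.24 CPM with vector and at 0.961 and 0.667 CPM with CD95L. MIRLET7I was at 32.1 and 6.2 CPM with vector and at 1.75 and 2.05 CPM with CD95L. In all 3 the groups did not overlap, and the CD95L replicates lay close together while the vector replicates did not. The order of the 3 depended on the library. In vector replicate 1 the exact 95% Poisson intervals of MIRLET7G (38.1 to 43.2 CPM) and MIRLET7C (35.4 to 40.3 CPM) overlapped, and that of MIRLET7I (30.0 to 34.5 CPM) lay below both. In vector replicate 2 the 3 levels were within each other's intervals, which ran from 5.26 to 7.30 CPM. In the CD95L libraries MIRLET7I had the highest level of the family. Its interval in CD95L replicate 1 (1.25 to 2.38 CPM) overlapped that of MIRLET7G (0.742 to 1.66 CPM), and its interval in CD95L replicate 2 (1.5 to 2.73 CPM) lay just above that of MIRLET7G (0.613 to 1.48 CPM). Among all miRNA symbols, MIRLET7G ranked 41 in vector replicate 1, 122 in vector replicate 2, 291 in CD95L replicate 1 and 309 in CD95L replicate 2.

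MIRLET7D and MIRLET7F2 were lower throughout. MIRLET7D was at 8.47 and 1.55 CPM with vector and at 0.262 and 0.445 CPM with CD95L, the latter from 6 and 10 reads. MIRLET7F2 was at 3.53 and 0.636 CPM with vector and at 0.306 and 0.0445 CPM with CD95L, the latter from 7 reads and 1 read. The groups did not overlap in either gene. For MIRLET7F2 the counting intervals of vector replicate 2 (0.363 to 1.03 CPM) and CD95L replicate 1 (0.123 to 0.630 CPM) did overlap, so that step was not detectable at this depth.

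The other 5 members had few reads or none. MIRLET7A1 had 11 reads (0.441 CPM) in vector replicate 1, 1 read (0.0397 CPM) in vector replicate 2 and 0 in both CD95L libraries. MIRLET7A2 had 7 reads (0.281 CPM) in vector replicate 1 and 0 in the other libraries. MIRLET7A3, MIRLET7B and MIRLET7E had 0 reads in all 4 libraries. No fold is given for these rows, because vector replicate 2 was itself under the limit that a count of 0 allows. Thus all 3 genes of let-7a, the sequence with 3 copies in the genome, were at or near 0. MIRLET7F2, which shares its mature sequence with MIRLET7F1, had up to 88 reads. MIR99B, which faces the same GENCODE antisense exon as MIRLET7E 104 bases away, had 15.9 CPM in vector replicate 1. MIRLET7BHG, whose GENCODE exon holds MIRLET7A3 and MIRLET7B, had a row of its own in the table. So did MIR99AHG, whose GENCODE exon overlaps MIRLET7C, yet MIRLET7C had 942 reads in vector replicate 1. How the counting treated reads that fit several places or several genes is not given in the sources used here, and its part in the rows at or near 0 was not tested.

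The difference between groups was tested by limma on log2(CPM + 1) over the 16127 genes whose mean CPM over the 4 libraries was 1 or more, with Benjamini-Hochberg adjustment over all of them. Of the 10 members 5 passed this filter, MIRLET7C, MIRLET7D, MIRLET7F2, MIRLET7G and MIRLET7I, and on the CD95L libraries alone only MIRLET7G and MIRLET7I would have passed. The difference, CD95L minus vector, was -3.21 ± 0.56 (SE, n = 2 per group) for MIRLET7C, with an adjusted p of 0.242 by limma. It was -3.07 ± 0.58 for MIRLET7G (limma adjusted p = 0.259) and -2.42 ± 0.52 for MIRLET7I (limma adjusted p = 0.353). It was -1.86 ± 0.46 for MIRLET7D (limma adjusted p = 0.593) and -1.22 ± 0.40 for MIRLET7F2 (limma adjusted p = 0.823). On this scale the change of low genes is understated. Thus 0 of 5 members passed the threshold of 0.05 in either direction, beside 0.0% of all tested genes called lower and 0.0062%, the FASLG row alone, called higher. At an unadjusted p under 0.05, limma held 867 of the 16127 tested genes, 460 higher and 407 lower with CD95L. All 5 tested members were among the lower ones. The median difference of the 5 members was -2.42, beside -0.01 over all tested genes, and both vector libraries were above both CD95L libraries in all 5. MIRLET7C, MIRLET7D and MIRLET7F2 passed the filter only through the vector libraries, which fixes the sign of their differences, so nothing is read from these figures over the 5. In MIRLET7G and MIRLET7I, whose sign the filter did not fix, the groups did not overlap, as in 19.0% of all tested genes, and the order was vector replicate 1, vector replicate 2 and then both CD95L libraries, as in 11.8%.

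A count model gave another answer. On the whole reads recovered from the CPM, edgeR's quasi-likelihood test called 4 of the 5 members lower with CD95L, beside 0.397% of all tested genes (64 genes), and 0 higher, beside 0.0496%. These were MIRLET7C (log2 difference -4.70, adjusted p = 3.39e-05 by edgeR), MIRLET7G (-4.41, 6.18e-05), MIRLET7I (-3.29, 2.26e-04) and MIRLET7D (-3.77, 0.00270). MIRLET7F2, at -3.46, had an edgeR adjusted p of 0.0835. The count of 4 includes MIRLET7C and MIRLET7D, whose sign the filter fixes. DESeq2 on the same reads called only MIRLET7C and MIRLET7D, beside 0.186% of genes called lower. The filter fixes the sign of both, so nothing is read from that count. With library factors applied to the CPM, limma called MIRLET7C, MIRLET7G and MIRLET7I, beside 0.167% of genes with TMM factors and 0.186% with DESeq2 size factors. It called the same 3 with a variance trend, beside 0.174%. These 3 include MIRLET7C, whose sign the filter fixes. Of the 351 miRNA symbols tested, edgeR called 43 lower and 0 higher, and their median difference by limma was -0.18.

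The calls changed with the library left out. Without vector replicate 1, limma called MIRLET7C (-2.0, adjusted p = 0.0133) and MIRLET7G (-1.81, adjusted p = 0.0315), beside 0.093% of genes called lower, and edgeR called the same 2 members, beside 0.186%. With that library left out of the filter too, an alternative chosen after seeing the data, both tools again called these 2, beside 0.112% and 0.149% of genes. Without that library the differences of MIRLET7I (-1.32), MIRLET7D (-0.92) and MIRLET7F2 (-0.49) did not pass in limma, nor in edgeR. Without vector replicate 2 both tools called all 5, beside 0.471% of genes by limma and 0.508% by edgeR. Without CD95L replicate 1 neither tool called any member, beside 0.031% of genes by limma and 0.0% by edgeR, and without CD95L replicate 2 neither did, beside 0.0372% and 0.0124%. Over both of these, the lowest adjusted p was that of MIRLET7C, 0.0501 by limma without CD95L replicate 1. Without CD95L replicate 1 or 2 the difference of MIRLET7C moved little, at -3.33 and -3.10 by limma and -5.07 and -4.39 by edgeR. Those of the other members also moved little, except that of MIRLET7F2 by edgeR, which was -5.43 and -2.63. Apart from MIRLET7F2, the lost calls do not show that the difference rests on those libraries. With 1 library left in a group, the fits assume that it varies like the other group. The differences of MIRLET7G and MIRLET7I were negative in every fit made. Those of MIRLET7C, MIRLET7D and MIRLET7F2 were too, but the filter of the main test fixes their sign, so nothing is read from it.

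**Figure D2:**
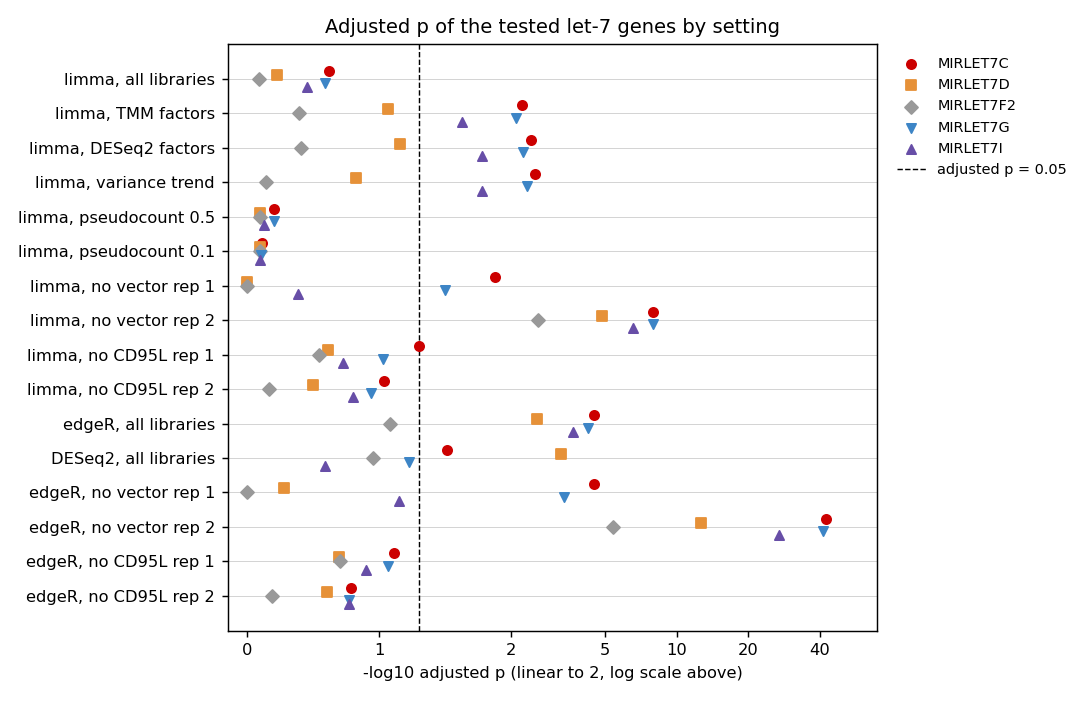
Adjusted p of the 5 tested let-7 genes, as -log10 on the horizontal axis (linear to 2, log scale above), for limma, edgeR and DESeq2 with all libraries, with other scalings and pseudocounts, and with 1 library left out. Points to the right of the dashed line are below 0.05, as are MIRLET7C and MIRLET7G without vector replicate 1 by both limma and edgeR, while no point is to its right without CD95L replicate 1 or 2.

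On the log2(CPM + 1) scale, the step between the vector replicates was larger than the step from vector replicate 2 to CD95L in all 5 members. Vector replicate 1 exceeded vector replicate 2 by 2.42 for MIRLET7C, 2.53 for MIRLET7G, 2.2 for MIRLET7I, 1.89 for MIRLET7D and 1.47 for MIRLET7F2. Vector replicate 2 exceeded the mean of the CD95L libraries by 2.0, 1.81, 1.32, 0.92 and 0.49 for the same genes. The CD95L replicates differed by -0.19 to 0.32. Over all tested genes the first step had a median of 0.08 and exceeded 1 in 1.43% of genes (230), and over tested miRNA symbols it exceeded 1 in 18.8% (66 of 351). Thus a step above 1 between the vector libraries was more frequent among miRNAs than among all genes, but most miRNAs did not have it. The 95th percentile of this step over tested miRNA symbols was 2.10, and MIRLET7C, MIRLET7G and MIRLET7I lay above it. In linear terms, vector replicate 1 held 5.19 to 6.55 times the CPM of vector replicate 2 for the 5 members, a narrow range. By contrast, vector replicate 2 held 3.27 (MIRLET7I) to 7.67 (MIRLET7C) times the CD95L mean. For MIRLET7C the order of the steps was thus reversed in linear terms, 6.06 against 7.67. In the other tested members the step between the vector replicates was the larger on both scales.

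**Figure D3:**
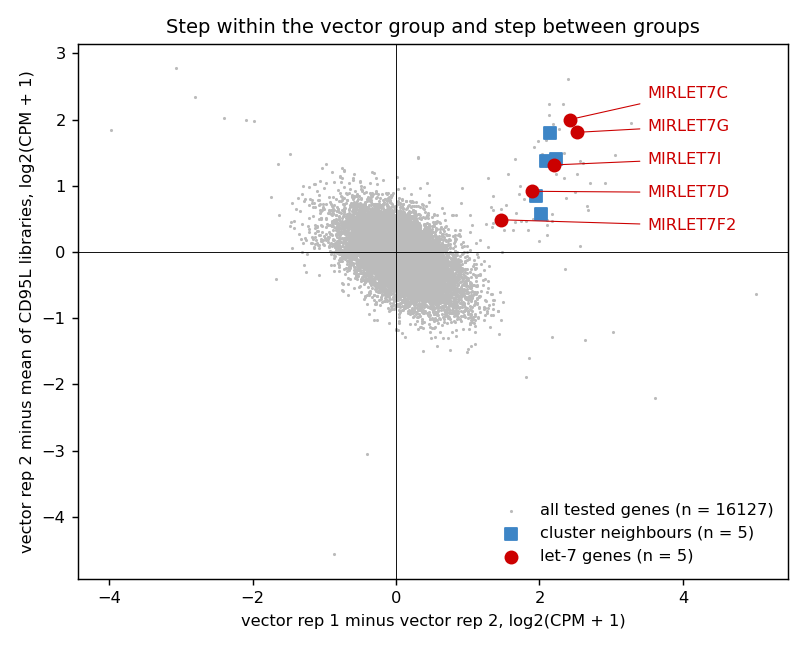
Horizontal axis, vector replicate 1 minus vector replicate 2, and vertical axis, vector replicate 2 minus the mean of both CD95L libraries, both in log2(CPM + 1), for all 16127 tested genes (grey), 5 let-7 genes (red circles) and 5 neighbouring miRNAs (blue squares). The let-7 genes lie at 1.47 to 2.53 on the first axis and 0.49 to 2.0 on the second, and vector replicate 2 enters both axes with opposite sign, which tilts the grey cloud downward.

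The family's make-up was also compared, as the share of each gene in the let-7 reads of its library. MIRLET7I took 26.1% (exact 95% interval 24.5 to 27.7%) and 29.7% (25.8 to 33.8%) in the vector libraries and 39.6% (30.0 to 49.8%) and 48.9% (38.5 to 59.5%) in the CD95L libraries. MIRLET7C took 30.7% and 29.9% with vector and 21.8% and 16% with CD95L. MIRLET7G took 32.9% and 29.7% with vector and 25.7% and 23.4% with CD95L. In all 3 the groups did not overlap, whereas the shares of MIRLET7D (6.87, 7.43, 5.94 and 10.6%) and MIRLET7F2 (2.87, 3.05, 6.93 and 1.06%) did. The difference was 16.4 percentage points for MIRLET7I, and 14.6 points without vector replicate 1. With 2 libraries against 2, the two-sided exact permutation test cannot go below p = 0.333, which was the value for MIRLET7I, MIRLET7C and MIRLET7G (0.555 after adjustment over the 5 shares), so these shares could not pass the threshold. In the CD95L libraries the shares rest on 101 and 94 reads.

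**Figure D4:**
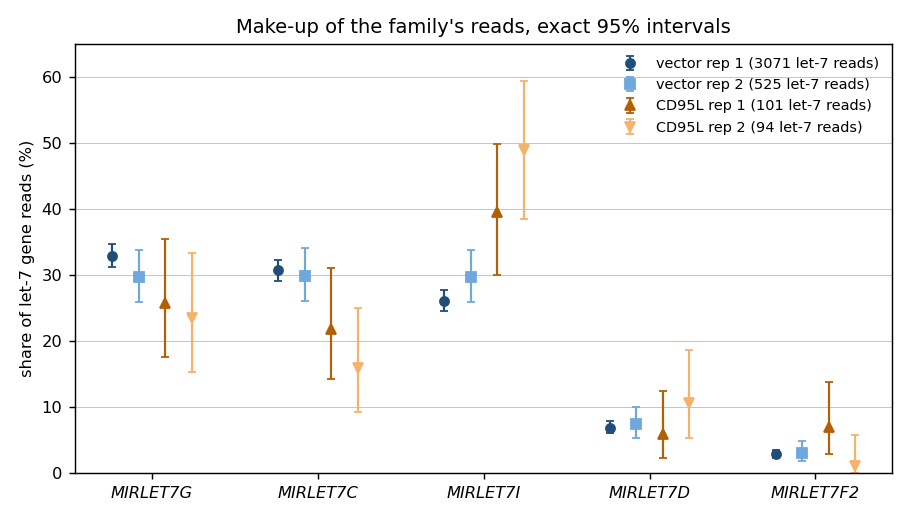
Share of each let-7 gene in the let-7 reads of its library (vertical axis, %), with exact 95% intervals as bars, for 2 vector and 2 CD95L libraries. MIRLET7I is at 26.1 and 29.7% in the vector libraries and at 39.6 and 48.9% in the CD95L libraries, with wide intervals where only 101 and 94 reads were counted.

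Several let-7 genes share a locus with other miRNAs. MIR98, 850 bases from MIRLET7F2 and of the same seed, was at 23.7 and 4.29 CPM with vector and at 0.742 and 1.29 CPM with CD95L. MIR100, 5635 bases from MIRLET7A2, was at 20.8 and 3.89 CPM with vector and at 0.262 and 0.578 CPM with CD95L. MIR99B, beside MIRLET7E, was at 15.9 and 2.98 CPM with vector and at 0.349 and 0.756 CPM with CD95L. MIR99A, 658 bases from MIRLET7C, was at 6.58 and 0.954 CPM with vector and at 0.0873 and 0.0889 CPM with CD95L, and MIR125B2 was at 6.74 and 0.914 against 0.306 and 0.267 CPM. These 5 neighbours had the same order of libraries as the let-7 genes, also where the let-7 row of the locus was at or near 0. That order was seen in 11.8% of all tested genes. For all of the 5 but MIR98 the filter had fixed a vector mean above the CD95L mean, so nothing is read from their number. MIRLET7F1, 310 bases from MIRLET7A1, was at 0.441, 0.199, 0.0873 and 0.133 CPM. MIR125B1 had 0.361 and 0.0397 CPM with vector and no read with CD95L, MIR125A and MIR4763 had no read in any library, and the transcript MIRLET7DHG was at 0.883, 0.119, 0.524 and 0.445 CPM. Of the 10 neighbours listed, 5 were tested. limma called 0 of the 5 (lowest adjusted p = 0.242), beside 0.0% of all tested genes called lower, and edgeR called 5 of the 5 lower, beside 0.397%. Of these, MIR99A, MIR125B2, MIR100 and MIR99B passed the filter only through the vector libraries, which fixes the sign of their differences, so nothing is read from the count, and MIR98 alone would have passed on the CD95L libraries.

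The host transcripts were seen as fragments in these libraries. The order of vector replicate 1, vector replicate 2 and then both CD95L libraries was seen in MIR100HG and SPACA6P, with small steps. It was not seen in the other 5 with a row. Of all tested genes 11.8% had this order, so the host transcripts are not divided by it. HUWE1, a ubiquitin ligase gene that holds MIRLET7F2 and MIR98, was at 28.2 and 23.4 CPM with vector and at 23.7 and 27.9 CPM with CD95L. WDR82, which holds MIRLET7G and encodes a chromatin protein, was at 28.7 and 22.5 CPM with vector and at 24.5 and 26.3 CPM with CD95L. MIRLET7BHG, over MIRLET7A3 and MIRLET7B, was at 8.87, 5.64, 6.64 and 9.43 CPM, although both of its miRNAs were at 0. MIR100HG, which holds MIRLET7A2, was at 7.59 and 7.43 CPM with vector and at 5.59 and 5.11 CPM with CD95L, and SPACA6P was at 4.09 and 3.85 CPM with vector and at 3.10 and 2.67 CPM with CD95L. Their vector replicates lay close together, where those of the tested let-7 genes did not. MIR99AHG was near the limit of counting, at 0.120, 0.119, 0.218 and 0.400 CPM. Of the 8 host transcripts listed 6 were tested, 2 with positive and 4 with negative differences and a median of -0.02, and neither limma nor edgeR called any (lowest adjusted p 0.923 and 0.863). One of the 6, LINC01465, is an antisense neighbour of MIRLET7I and not its host.

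**Figure D5:**
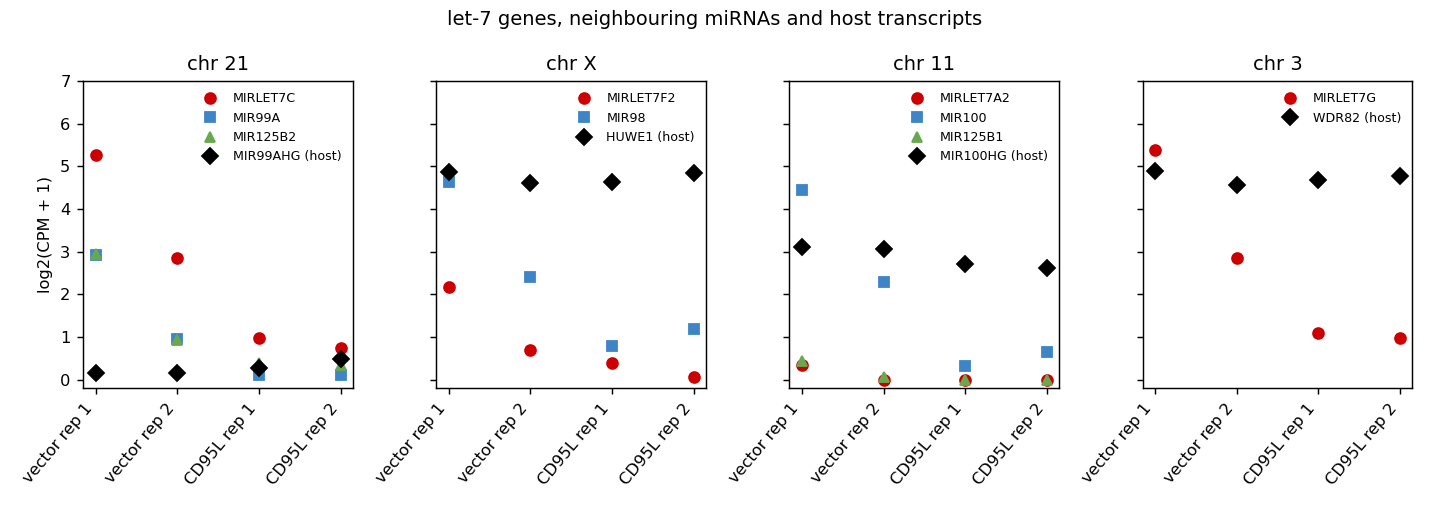
log2(CPM + 1) in each library (vertical axis) for let-7 genes, their neighbouring miRNAs and the host transcript (black diamonds) at loci on chromosomes 21, X, 11 and 3. The miRNAs are highest in vector replicate 1, while HUWE1 and WDR82 are level, at 22.5 to 28.7 CPM in all 4 libraries.

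Genes of the let-7 pathway appear in small RNA libraries as mRNA fragments, which is not a measure of mRNA level. Of 20 genes listed for miRNA processing and let-7 control, 18 were tested, 8 with positive and 10 with negative differences, and 0 were called by limma or edgeR (lowest adjusted p 0.923 and 0.819). The 3 most abundant were TRIM25, a cofactor of let-7 precursor uridylation, at 110, 103, 103 and 85.4 CPM, AGO2, the Argonaute with slicer activity, at 42.7, 36.6, 40.2 and 32.6 CPM, and AGO4 at 16.1, 14.5, 16.2 and 24.4 CPM. LIN28A and LIN28B, which block let-7 maturation, were at 0.397 to 2.62 CPM in the 4 libraries. Of 25 known let-7 targets listed, 21 were tested, 6 with positive and 15 with negative differences (median -0.17), and 0 were called by limma or edgeR (lowest adjusted p 0.923 and 0.837). In 12 of the 21 both vector libraries were above both CD95L libraries, beside 19.0% of all tested genes. CDC25A, a cell cycle phosphatase, was at 752, 721, 553 and 806 CPM. MYC was at 280, 264, 315 and 303 CPM. CCND1, cyclin D1, was at 129, 133, 112 and 98.2 CPM, one of the 12 whose groups did not overlap.

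Markers of other cells were listed because serum or virus stocks can bring in foreign miRNAs. Of 24 such miRNA symbols, 8 had reads. Their summed level was 8.15 to 41.3 CPM in the vector libraries and 1.38 to 2.66 CPM in the CD95L libraries, the same order as let-7. That order was seen in 11.8% of all tested genes. The blood list had 4 of its 6 symbols with reads, at a summed 4.09 and 1.31 CPM with vector and 0.830 and 0.623 CPM with CD95L. The nerve list stayed under 0.120 CPM in each library and was highest in vector replicate 2. Of the mesenchyme list only MIR145 was seen. Most of the sum over all 24 was MIR126, an endothelial miRNA, at 35.0 and 6.48 CPM with vector and at 1.48 and 0.711 CPM with CD95L. In the blood list MIR150 was at 1.12, 0.477, 0.655 and 0.445 CPM, MIR142 at 1.61, 0.556, 0.175 and 0.178 CPM, and MIR144 at 1.08 and 0.278 CPM with vector and at 0 with CD95L. MIR145 of the mesenchyme list was at 2.21, 0.238, 0.262 and 0.0445 CPM. Thus MIR150, MIR142, MIR144 and MIR145, like MIR126, were highest in vector replicate 1, for which no share over all genes was computed. In MIR150 and MIR145, CD95L replicate 1 was above vector replicate 2. MIR223 had 7 reads, in vector replicate 1 alone, and MIR9-1 and MIR9-3 had 3 reads or fewer in any library. The other 16 symbols had 0 reads in every library, and these held all 5 of the muscle list, MIR122 of liver, all 3 MIR124 genes of nerve, MIR451A and MIR486-1 of blood, and MIR143, MIR199A1, MIR199A2 and MIR214 of mesenchyme. The part of such RNA in the let-7 values was not tested.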

How the data were processed

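Small RNA of 4 libraries (2 vector, 2 CD95L) was sequenced on an Illumina HiSeq from total RNA. The deposited table holds CPM per gene symbol, which the authors made with TopHat, HTSeq and edgeR on hg38 after adapter trimming (Bowtie2 is also named in the submitters' notes). Versions and annotation are not given in the sources used here. Columns with the authors' own comparison (log2 fold change, p-value and adjusted p) were not used, and 0 columns of per-sample values were left unmapped.

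CPM summed to 1000000 per library, and 100% of values were whole multiples of 1 read within 0.01 read, so reads were recovered. Total reads were 22488145 to 25163566. The main test was limma 3.58.1 (R 4.3.3) on log2(CPM + 1) without a variance trend, for genes at a mean CPM of 1 or more, two-sided, with Benjamini-Hochberg adjustment over all 16127 genes tested and a threshold of 0.05. edgeR 4.0.16 and DESeq2 1.42.0 on the recovered reads, pseudocounts of 0.1 and 0.5, no filter, a filter of 5 CPM, TMM and DESeq2 factors, a variance trend, a replicate block and leaving out each library were alternatives. The fits were tested on simulated data. Intervals are exact (Poisson or Clopper-Pearson, 95%). Sequences came from RefSeq (GRCh38.p14), and copies were counted in hg38.

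The members and lists were chosen with earlier results of these data known. All members and neighbours were named, and of each other list the 3 genes with the highest mean CPM. DROSHA, LIN28A, LIN28B, the smaller host transcripts, the other markers of foreign cells and FASLG fall outside this rule and were chosen after their values were seen.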

Additional observations from a re-analysis of the deposited data

How the results depend on the processing

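The number of let-7 members called lower with CD95L was 0 by limma and stayed 0 with pseudocounts of 0.1 and 0.5, with no filter (7 members tested) and with a filter of 5 CPM (3 tested). It was 3 (MIRLET7C, MIRLET7G and MIRLET7I) with TMM factors, DESeq2 size factors or a variance trend, 4 by edgeR and 2 (MIRLET7C and MIRLET7D) by DESeq2, and 0 to 5 with 1 library left out. The neighbouring miRNAs called lower numbered 3 with TMM factors, DESeq2 size factors or a variance trend, 5 by edgeR, 3 by DESeq2 and 0 to 5 with 1 library left out. No member or neighbour was called higher in any of these fits. Over all genes, limma called 1 higher and 0 lower. With TMM factors, DESeq2 size factors and a variance trend the lower calls were 27, 30 and 28. A pseudocount of 0.1 and no filter gave 0 higher. edgeR gave 8 higher and 64 lower, DESeq2 7 and 30, and leaving out 1 library 1 to 17 higher and 0 to 82 lower. The cause of these differences was not tested. The median difference of the tested members was -2.42 by limma and ran from -3.52 to -1.32 with 1 library left out, and it was -3.77 by edgeR and ran from -4.61 to -2.16. Both groups carry replicate numbers 1 and 2, but same-numbered libraries did not deviate together (correlation -0.00198 over 16127 genes, from 2 pairs). This does not settle whether they were paired, as a pairing that acts on few genes would leave little trace in it. The main test used no pairing. With a replicate block the members called lower were 5 by limma and 5 by edgeR, and the neighbours 5 and 5. Of all 16127 genes, limma then called 9 higher and 71 lower, and edgeR 23 higher and 75 lower. With all libraries kept, the main filter fixed the sign of MIRLET7C, MIRLET7D, MIRLET7F2 and every tested neighbour but MIR98. Nothing is therefore read from the counts of members and neighbours called lower. Leaving vector replicate 1 out of the filter too, chosen after seeing the data, left 3 members tested and 2 called (MIRLET7C and MIRLET7G) by limma and by edgeR. Depth limited MIRLET7A1, MIRLET7A2 and, in the CD95L libraries, MIRLET7D and MIRLET7F2, which had 10 reads or fewer there.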

Other observations

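The genes outside the family whose pattern over the 4 libraries was nearest to the mean of the 5 tested members, by Euclidean distance of centred log2(CPM + 1) over 16122 genes, were SNORD116-29 (distance 0.158), MIR23B (0.197), MIR151A (0.225), MIR92B (0.228) and MIR411 (0.235), where the median distance of all ranked genes was 2.78. SNORD116-29, a C/D snoRNA symbol of the imprinted region of chromosome 15, was at 11 and 1.55 CPM with vector and at 0.218 and 0.0445 CPM with CD95L. MIR92B was at 46.9 and 10.3 CPM with vector and at 3.19 and 4.0 CPM with CD95L, and MIR23B was at 13.6, 2.54, 0.218 and 0.311 CPM. Of the 20 nearest genes 14 were miRNA symbols, and MIR98, of the same seed as let-7, ranked 12. With 4 libraries and 1 far from the others, this likeness is a description of the order of the libraries.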
